A study of Mus musculus with 6 samples.

Results

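The 37 DNA replication genes described here copy the genome or supply that work. They are mouse genes for the proteins that load and fire replication origins, unwind and copy DNA, make its building blocks and pack the new strands into chromatin. They were taken from a fixed list of symbols, chosen with earlier results of these data known. Of the list, 37 of 37 were found among the 31053 genes of a single-cell count matrix. The matrix covers CD45+ cells, blood-derived and resident immune cells, sorted from the tumor-bearing brain hemisphere of female SCID mice, which lack T and B lymphocytes. The mice received 50000 U87 cells, an established human glioma line, and were 6 to 8 weeks old by the sample labels. In 3 mice the U87 cells expressed IL-33 (group IL33, taken 3 weeks after implantation), and in 3 they carried the empty vector pcDNA 3.1 (group pcDNA, taken 6 weeks after implantation). Time and IL-33 cannot be told apart in this design. The 6 libraries were joined in 1 matrix in which each cell barcode ends in a suffix from 1 to 6, and the sample labels tie no suffix to a mouse. Suffixes were not assigned to groups by their cell numbers or depth, and the study's sequencing metrics were not used for this. IL33 and pcDNA were therefore not compared, the matrix was treated as 1 pooled sample, and no test was run. Values by suffix are given as they are.

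Replication is prepared in G1, when ORC, CDC6 and CDT1 load the MCM2-7 ring on origins. Cyclin E with CDK2 and the factors CDC45, MCM10 and GINS then turn the ring into a moving helicase, and polymerases, the PCNA clamp, the RFC clamp loader, FEN1 and LIG1 copy and seal the strands. Most of these genes are known targets of E2F transcription factors, which are held back by the RB family in resting cells. Adult microglia, the resident macrophages of the brain, divide rarely and can multiply around a tumor, while monocytes and granulocytes reach the tissue as cells that have mostly left the cycle.

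The 37 genes lie on 16 chromosomes and are all annotated as protein coding. RefSeq promoter windows (GRCm38.p6, 250 bases before to 50 after the start) were at hand for 32 of the 37. The 8 letters TTTCCCGC, TTTCGCGC, TTTGCCGC and TTTGGCGC, forms of the E2F site, were searched on both strands, where forms may overlap. At least 1 of them stood in 15 of the 32 (46.9%), against 2.61% of the genes with a promoter in the whole table (704 of 27025). In 38 promoters of other replication genes the share was 26.3%, and in 26 promoters of mitosis genes 3.85%. TTTGAA, the core of the cell cycle homology region (CHR) of genes used in mitosis, was spread the other way. It stood in 3 of the 32 (9.38%) and in 20 of the 26 mitosis genes (76.9%), against 20.2% of all. CCAAT stood in 59.4% of the members' promoters, 84.6% of those of mitosis genes and 41.1% of all. A match is a run of letters and not a measured site.

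The promoters of 3 members with these letters are shown with those of Rrm2 and Slbp, which have none and stand at the opposite ends of the behavior described further on. Each run is the 250 bases before the RefSeq start on the gene's own strand, with E2F letters in capitals. The windows are Mcm5 chr8:75109259-75109508 (+), Mcm6 chr1:128359706-128359955 (-), Pola1 chrX:93632156-93632405 (-), Rrm2 chr12:24708004-24708253 (+) and Slbp chr5:33652575-33652824 (-). The first 3 touch no gene of the GENCODE annotation, the Rrm2 window reaches 13 bases into the first exon that GENCODE gives, and the Slbp window lies inside Gm10459.
Mcm5: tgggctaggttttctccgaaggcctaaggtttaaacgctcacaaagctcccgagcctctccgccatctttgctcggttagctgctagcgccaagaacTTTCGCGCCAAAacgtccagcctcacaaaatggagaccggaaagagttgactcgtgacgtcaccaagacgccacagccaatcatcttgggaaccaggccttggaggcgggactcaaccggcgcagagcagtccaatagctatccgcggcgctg
Mcm6: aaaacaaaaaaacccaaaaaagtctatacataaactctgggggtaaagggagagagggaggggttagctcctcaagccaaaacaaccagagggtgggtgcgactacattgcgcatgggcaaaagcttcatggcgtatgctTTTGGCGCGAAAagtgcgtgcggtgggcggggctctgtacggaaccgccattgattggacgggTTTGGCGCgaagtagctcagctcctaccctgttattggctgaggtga
Pola1: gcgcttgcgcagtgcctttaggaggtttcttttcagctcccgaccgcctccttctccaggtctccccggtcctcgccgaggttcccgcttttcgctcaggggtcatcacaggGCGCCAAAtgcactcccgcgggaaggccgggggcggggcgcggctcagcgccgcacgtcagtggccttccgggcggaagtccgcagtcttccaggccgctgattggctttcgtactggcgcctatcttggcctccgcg
Rrm2: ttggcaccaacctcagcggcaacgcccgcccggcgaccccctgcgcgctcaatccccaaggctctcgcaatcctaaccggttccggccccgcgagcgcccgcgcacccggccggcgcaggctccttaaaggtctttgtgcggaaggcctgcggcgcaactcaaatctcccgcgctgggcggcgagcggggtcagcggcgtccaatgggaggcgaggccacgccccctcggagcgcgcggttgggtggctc
Slbp: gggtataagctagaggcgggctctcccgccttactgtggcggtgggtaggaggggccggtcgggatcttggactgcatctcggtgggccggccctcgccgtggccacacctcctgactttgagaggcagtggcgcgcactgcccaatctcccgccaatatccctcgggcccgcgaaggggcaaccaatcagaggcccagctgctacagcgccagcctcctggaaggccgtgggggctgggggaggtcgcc
In Mcm5 and in the upstream pair of Mcm6 a form on one strand overlaps a form on the other, and a single run of capitals holds both.

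The matrix holds 105560763 unique molecular identifiers (UMIs, each standing for 1 captured transcript) in 40411 barcodes, with a median of 1536 to 3503 UMIs by suffix. The limits of the study's methods (over 200 and at most 2500 genes, under 5% mitochondrial counts) kept 38751. Libraries share barcodes. Of 29579 distinct 16-base barcodes, 3890 occur with more than 1 suffix and make up 14722 barcodes (36.4%), 20.7% to 51.0% by suffix. Any pair of suffixes shares 509 to 3428, which is 17.7% to 49.6% of the smaller library, and the log UMI totals of the shared ones correlate with r = 0.22 to 0.91 across those barcodes. The replication genes carry this sharing too. Among barcodes of microglia shared by a pair of suffixes, 37.4% (of 99) were replication-rich, as defined below, in the second library if they were in the first, and 1.16% (of 6451) if they were not. Summed levels, replication-rich shares, counts of higher members and the ratios with each gene left out in turn were therefore also computed without shared barcodes. The other results were not run that way, and suffixes are not independent.

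Cells were sorted into gates by marker genes, at least 3 of a list with a UMI. The microglia gate held 36183 barcodes (93.4% of those kept), the NK cell gate 124, the monocyte gate 231, the granulocyte gate 53 and the gate of choroid plexus epithelium, a lining of the ventricles that is no immune cell, 175. A further 13 barcodes were gated as dendritic cells, 1 as a border-associated macrophage, 284 carried markers of another type with microglial ones and 1687 met no gate. The genes that follow are among those used for gating, so their levels describe the gates and are no separate check of the labels. Tmem119, a microglial gene, was at 2467 UMIs per 1000000 UMIs of the gate (counts per 1000000, CPM) in the microglia gate, 17.2 in the NK cell gate and 6.55 in the monocyte gate, and Gzma, a granule protease of NK cells, was at 10367 in the NK cell gate and had 0 UMIs in the monocyte gate. Cd209a, of the dendritic cell list, was at 2443 CPM (177 UMIs) in the dendritic cell gate and 838 (895 UMIs) in the monocyte gate. Ccr2, of the monocyte list, was at 1973 in the monocyte gate and 1007 in the dendritic cell gate. The monocyte gate thus carries dendritic cell markers, and how many of its barcodes are such cells was not counted. Macrophages that came from the bone marrow and took on microglial genes fall into the microglia gate and cannot be told apart from microglia here.

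The 37 genes together took 57965 of the UMIs in kept barcodes. They took 613 CPM in microglia (95% Poisson interval 608 to 618), 962 in NK cells (840 to 1097), 354 in monocytes (319 to 391), 264 in granulocytes (161 to 407, from 20 UMIs), 317 in dendritic cells (201 to 476) and 261 in choroid plexus epithelium (212 to 317). The ratio to microglia was 1.57 (1.37 to 1.79) in NK cells and 0.577 (0.520 to 0.639) in monocytes. All intervals here cover counting error and not differences between mice. Without shared barcodes the values were 642 in microglia, 988 in NK cells, 353 in monocytes and 162 in granulocytes. Of the 124 NK cell barcodes 41 had suffix 4 and 59 suffix 6. For monocytes it was 88 and 90 of 231, and for microglia 5430 and 5190 of 36183. Microglial levels of the members also differ by suffix, as given further on. Levels, ratios and shares by gate pool the suffixes and were not adjusted for this. The order of NK cells, microglia and monocytes was also found within each of the suffixes 4 and 6, the pair with at least 20 barcodes in all 3 gates. In suffix 4 the values were 821, 796 and 443 CPM, where the NK interval (620 to 1066) spans the microglial value. In suffix 6 they were 1027 (858 to 1218), 667 and 292. In bulk sums such as these, more dividing cells and more RNA per cell cannot be told apart. Counts per barcode are given further on.

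**Figure D1:**
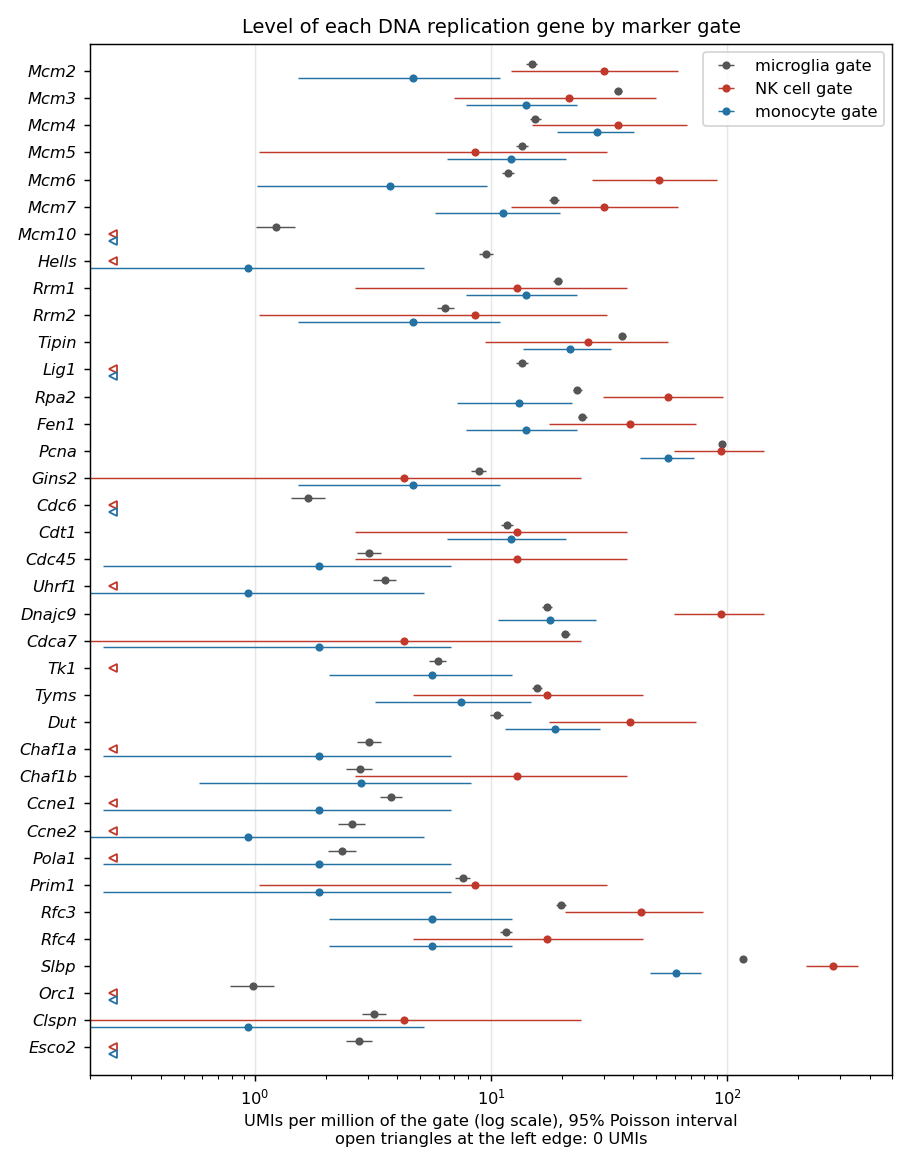
Level of each of the 37 genes in the microglia, NK cell and monocyte gates, as CPM of the gate on a log axis with 95% Poisson intervals; open triangles mark 0 UMIs. Slbp, Dnajc9 and Mcm6 stand to the right in NK cells, while Lig1 has no UMI in NK cells or monocytes.

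The genes that load the helicase were carried by MCM genes in each gate. In microglia Mcm3 took 34.5 CPM, Mcm7 18.5, Mcm4 15.4, Mcm2 14.9, Mcm5 13.5 and Mcm6 11.8. These are subunits of 1 ring. A 3′ UMI stands for 1 transcript whatever its length, and how well each gene is captured is not known here. The loading factors were lower, with Cdt1 at 11.7, Cdc6 at 1.69 and Orc1, the largest ORC subunit, at 0.980. In NK cells Mcm6 reached 51.5 (26.6 to 90.0, 12 UMIs), a ratio of 4.36 (2.25 to 7.65), whereas Mcm3 and Mcm5 lay at 0.623 (0.202 to 1.46) and 0.636 (0.0769 to 2.30) of the microglial level. Within suffix 4 Mcm6 was at 73.3 in NK cells (5 UMIs) against 24.2 in microglia. Within suffix 6 it was at 39.2 (5 UMIs) against 14.9, so the pooled ratio is the larger one. In monocytes Mcm4 was at 28.1 CPM, 1.82 times microglia (1.22 to 2.61), while Mcm2 was at 0.315 (0.102 to 0.736), Mcm3 at 0.408 (0.228 to 0.673) and Mcm6 at 0.317 (0.0862 to 0.814). The subunits of the ring thus did not keep 1 ratio between gates.

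Of the factors that start the helicase, Gins2, a GINS subunit, was at 8.87 CPM in microglia, Cdc45 at 3.05 and Mcm10 at 1.23. NK cells held 1 UMI of Gins2, 3 of Cdc45 and 0 of Mcm10. Both cyclin E genes, Ccne1 (3.79) and Ccne2 (2.58 in microglia), had 0 UMIs in NK cells, where 1 UMI is worth 4.29 CPM and a count of 0 allows up to 3.

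The copying machinery was led by Pcna, the sliding clamp, at 94.9 CPM in microglia, 94.5 in NK cells (ratio 0.996, 0.624 to 1.51) and 56.2 in monocytes (0.592, 0.451 to 0.762). Rfc3 and Rfc4 of the clamp loader were at 19.8 and 11.6 in microglia, Prim1, which makes RNA primers, at 7.58, and Pola1, the catalytic subunit of the priming polymerase, at 2.35. Pooled over suffixes, Rfc3 was at 2.17 of the microglial level in NK cells (1.04 to 4.0) and at 0.284 in monocytes (0.104 to 0.619). In suffix 4 Rfc3 was lower in NK cells, at 14.7 (1 UMI) against 23.1 in microglia. In suffix 6 it was higher, at 47.0 (6 UMIs) against 21.1. Among genes of strand maturation, Rpa2, which coats single strands, was at 23.2 in microglia and 55.8 in NK cells (2.41, 1.28 to 4.12), and Fen1, the flap nuclease, at 24.3 and 38.7. In suffix 4 Rpa2 was at 29.3 in NK cells (2 UMIs) against 27.4 in microglia, and in suffix 6 at 70.5 against 24.7. Lig1, the ligase that seals Okazaki fragments, was seen in 1 of these 3 gates, with 1230 UMIs in microglia (13.5 CPM), 0 in NK cells and 0 in monocytes. The interval of its ratio to microglia reached 1.17 in NK cells and 0.255 in monocytes, so that depth allows an equal level in NK cells and not in monocytes.

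Genes for chromatin held the widest gap of NK cells to microglia. Slbp, which binds the stem-loop of histone mRNAs, was at 117 CPM in microglia, 279 in NK cells (2.39, 1.84 to 3.05) and 60.8 in monocytes (0.521, 0.401 to 0.664). In suffixes 4 and 6 Slbp was at 176 and 321 in NK cells, against 121 in microglia in both. Dnajc9, a histone chaperone, was at 17.2 in microglia and 94.5 in NK cells (5.48, 3.42 to 8.32), with 103 and 102 in suffixes 4 and 6. Cdca7 was at 20.7, and Hells, a remodeler that works with it, at 9.54. In NK cells Cdca7 had 1 UMI and Hells 0, and in monocytes they stood at 0.0907 (0.0110 to 0.328) and 0.0981 (0.00248 to 0.548) of the microglial level. Uhrf1, which guides maintenance of DNA methylation, and Chaf1a and Chaf1b, subunits of the histone chaperone CAF-1, were at 3.55, 3.05 and 2.78 in microglia.

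For nucleotide supply, Rrm1 and Rrm2, the subunits of ribonucleotide reductase, were at 19.1 and 6.41 CPM in microglia, Tyms, thymidylate synthase, at 15.7, Dut, which clears dUTP, at 10.6, and Tk1, thymidine kinase, at 5.95. Pooled over suffixes, Dut was above its microglial level in NK cells (3.66, 1.67 to 6.98), monocytes (1.77, 1.08 to 2.75) and choroid plexus epithelium (4.99, where it held the most UMIs of the 37, 20). In monocytes it was higher in suffixes 4 (26.4 against 17.1) and 5 (34.0 against 12.2). In suffix 6 it was not (11.0 against 12.4). Of the genes that guard the fork and join sister strands, Tipin was at 35.8 in microglia, Clspn, the adaptor of the replication checkpoint, at 3.19 and Esco2, the acetyltransferase of cohesin, at 2.76. Esco2 had 0 UMIs in NK cells and monocytes.

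Counts of members that differ need the count over all genes beside them. Of 25 members with a mean of at least 5 CPM over both gates, 10 were at least 2-fold higher in NK cells than in microglia, against 26.1% of all 9168 genes tested so. They were Mcm2, Mcm4, Mcm6, Rpa2, Cdc45, Dnajc9, Dut, Chaf1b, Rfc3 and Slbp. The count pools the suffixes. In suffix 4 Mcm4 (14.7 against 24.5 CPM) and Rfc3 (14.7 against 23.1) were lower in NK cells, from 1 UMI each. In suffix 6 they were higher (31.3 against 16.9 and 47.0 against 21.1). Mcm2 was at 29.3 against 23.7 in suffix 4 and at 23.5 against 17.7 in suffix 6. Cdc45 had 0 UMIs in NK cells of suffix 6. The others of the 10 were higher in each of these suffixes. The interval of the ratio included 1 for Mcm2 (0.811 to 4.18), Mcm4 (0.961 to 4.41), Cdc45 (0.866 to 12.5) and Chaf1b (0.951 to 13.7). Cdc45 and Chaf1b reached the mean of 5 CPM only through 3 UMIs each in NK cells. For them, being tested at all meant being called higher. At least 2-fold lower were 3 (Lig1, Gins2 and Cdca7), against 23.5% of all genes, and the intervals of these 3 ratios also included 1. The median ratio was 1.49 over the 25 and 1.15 over all genes tested. In monocytes 0 of 24 were at least 2-fold higher (17.9% of all 8977 genes) and 9 at least 2-fold lower (22.2%), namely Mcm2, Mcm3, Mcm6, Hells, Lig1, Cdca7, Tyms, Rfc3 and Rfc4, with a median ratio of 0.571 against 0.951. Granulocytes held 20 member UMIs in all, 6 of them Slbp, 3 Mcm4 and 1 each of 11 others. There 6 of 26 were at least 2-fold higher (18.2% of 8425 genes), 5 of them from 1 UMI each, and 15 at least 2-fold lower (49.2%). The NK count fell to 4 where barcodes with microglial markers were put back in the NK gate, and the monocyte count of higher members rose from 0 to 2 where the limit of 2500 genes was lifted.

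Summed levels do not say how the members are spread over barcodes. Each barcode of at least 1000 UMIs was therefore drawn down to 1000 UMIs at random. It was called replication-rich if at least 3 different members kept a UMI. Barcodes at the common level of a gate can also reach 3 members. Microglia with 0 members drawn still held 427 CPM in their remaining UMIs. The share expected from such a level is not given, so the shares are not counts of replicating cells. The depth limit left out 7718 barcodes of the microglia gate, 13 NK cells, 31 granulocytes and no monocyte. In microglia 962 of 28465 were replication-rich (3.38%, exact 95% interval 3.17% to 3.60%). In NK cells 4 of 111 were (3.60%, 0.990% to 8.97%), all from suffix 6 and all with exactly 3 members. In monocytes 3 of 231 were (1.30%, 0.269% to 3.75%), all from suffix 4, and in choroid plexus epithelium 0 of 91, which allows up to 3.30%. In granulocytes 1 of 22 was, from suffix 1, and 0 of the 13 dendritic cells were. Before thinning the shares were 12.4%, 20.2% and 18.2% in microglia, NK cells and monocytes, whose median depths were 2499, 1728.5 and 4697 UMIs. Without shared barcodes the thinned shares were 3.81%, 3.77% and 1.37%.

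The members were also counted by how many a barcode held. At least 1 member was seen in 60.4% of thinned NK cells, against 36.9% of microglia, 26.4% of monocytes and 23.1% of choroid plexus epithelium. No gate was known to lack the members, so the share that free RNA gives was not measured. Exactly 2 members were seen in 24 of the 111 NK cells, and 4 or more in 0 of 111, which allows up to 2.70%. In microglia 4 or more were seen in 513 of 28465 (1.80%), a share that lies within this limit. With Slbp, Pcna, Tipin and Mcm3 left out of the list, the replication-rich share was 0.901% in NK cells, 1.98% in microglia and 0.433% in monocytes. Of the 30 mitosis genes at least 3 were seen in 0 of the 111 NK cells and in 216 of the microglia, which is within the same limit. A difference between the gates in barcodes with many members was thus not detectable with 111 NK cells.

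The call of 3 members is a limit on a range and not a type of cell, since 449 microglia had exactly 3 and 1756 exactly 2. The UMIs that were not drawn give an independent reading of the same barcodes. In these the members took 427 CPM in barcodes with 0 members drawn, 530 with 1, 948 with 2, 2062 with 3, 3563 with 4, 4839 with 5 and 7495 with 6 or more. The level rose at each step beyond the counting intervals. The 3.38% of barcodes called replication-rich held 26.6% of the left-over member UMIs and 4.22% of all left-over UMIs. They had a median of 3377 UMIs and 1496.5 genes, against 2889 and 1237 in barcodes with no member drawn (called replication-free), and 10.7% of them had a shared barcode, against 22.5%. The part of depth in the class was not tested beyond the thinning.

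**Figure D2:**
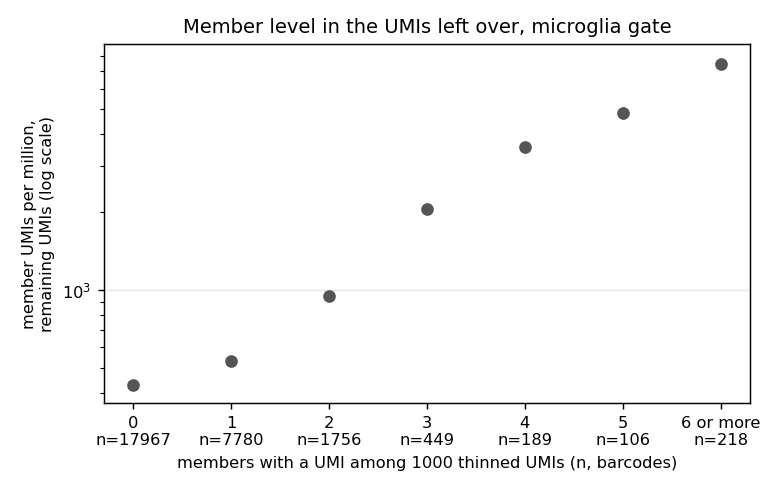
Members' level in the UMIs left after thinning (CPM, log axis, 95% Poisson intervals) against the number of members among the 1000 drawn UMIs, in microglia-gated barcodes with their number under each point. The level goes from 427 with 0 members to 7495 with 6 or more.

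To see which genes move with the rest, each was left out of the call in turn, and its level was read from the left-over UMIs in barcodes with at least 3 of the other 36 and in barcodes with none of them. All 37 were at least 2-fold higher in the replication-rich barcodes, with a median ratio of 15.9, and 35 were higher in 6 of 6 suffixes (Cdc45 and Orc1 in 5). The share of all genes that were higher in 6 of 6 suffixes is not given, here or for the later counts over suffixes. Suffixes share barcodes and are not independent. The share over all genes comes from the single call on all 37 members (962 replication-rich and 17967 replication-free barcodes). Of all 9167 genes tested between these classes 7.53% were at least 2-fold higher and 0.524% at least 2-fold lower, with a median ratio of 1.08. Without shared barcodes it was again 37 of 37, with a median ratio of 15.7, and the lowest ratio was 2.75. The members were listed with earlier results of these data known. Mcm2 to Mcm7, Hells, Tipin, Lig1, Rpa2, Fen1, Rrm1, Dnajc9 and Cdca7 are leading genes of the study's cycling microglia, found in these same cells. That these genes rise together was thus partly known beforehand, and the count of 37 is a description and no separate evidence.

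The largest ratios belonged to genes that were close to silent in the rest. Esco2 went from 1 UMI in 17968 replication-free barcodes (0.0285 CPM) to 164 UMIs in 960 (69.1 CPM), a ratio of 2425 (429 to 96344). Mcm10 followed with 515 (137 to 4340), from 2 UMIs to 70, and Rrm2 with 435 (246 to 849), from 0.342 to 149 CPM. Ccne1 was 200-fold higher (117 to 374) and Cdc6 169-fold (78.2 to 433). Ccne2, Tk1 and Uhrf1 came next, at 102, 99.7 and 87.9, then Chaf1a, Chaf1b and Clspn at 61.0, 52.0 and 51.6. For these genes the level in microglia as a whole was mostly that of a small number of barcodes.

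The smallest ratios were those of Pcna and Slbp, which also had the most UMIs outside the class. Pcna was at 267 CPM against 93.5, a ratio of 2.85 (2.60 to 3.12), and Slbp at 400 against 103, a ratio of 3.89 (3.60 to 4.20). Rfc3 (5.59), Cdca7 (6.15) and Dnajc9 (7.63) followed. Slbp and Pcna together made up 34.6% of the member UMIs in the microglia gate (19.1% and 15.5%), so that the summed level of the 37 genes in microglia was set in good part by the members that set the classes apart least. The MCM ring lay between, from 10.7 for Mcm3 to 46.7 for Mcm6, with Mcm5 at 32.4, Mcm2 at 15.9, Mcm7 at 14.0 and Mcm4 at 12.3. By role, the median ratio was 151 for cyclin E (2 genes), 51.6 for fork protection and cohesion (3), 39.4 for chromatin (7) and 33.3 for helicase activation (3). It was 15.9 for helicase loading (9), 14.3 for nucleotide supply (5), 9.11 for polymerase and clamp (5) and 8.72 for strand maturation (3). Genes within a role differed widely, from 7.81 to 2425 in fork protection, 8.75 to 515 in helicase activation and 3.89 to 87.9 in chromatin. With so few genes the order of the medians is not a property of the roles. The 15 members with E2F letters in their promoter had a median ratio of 21.2 (5.59 to 169) and the 17 without 15.9 (2.85 to 515), which overlap over most of their range. Both Rrm2 and Slbp, whose sequences are given above, are among the 17.

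**Figure D3:**
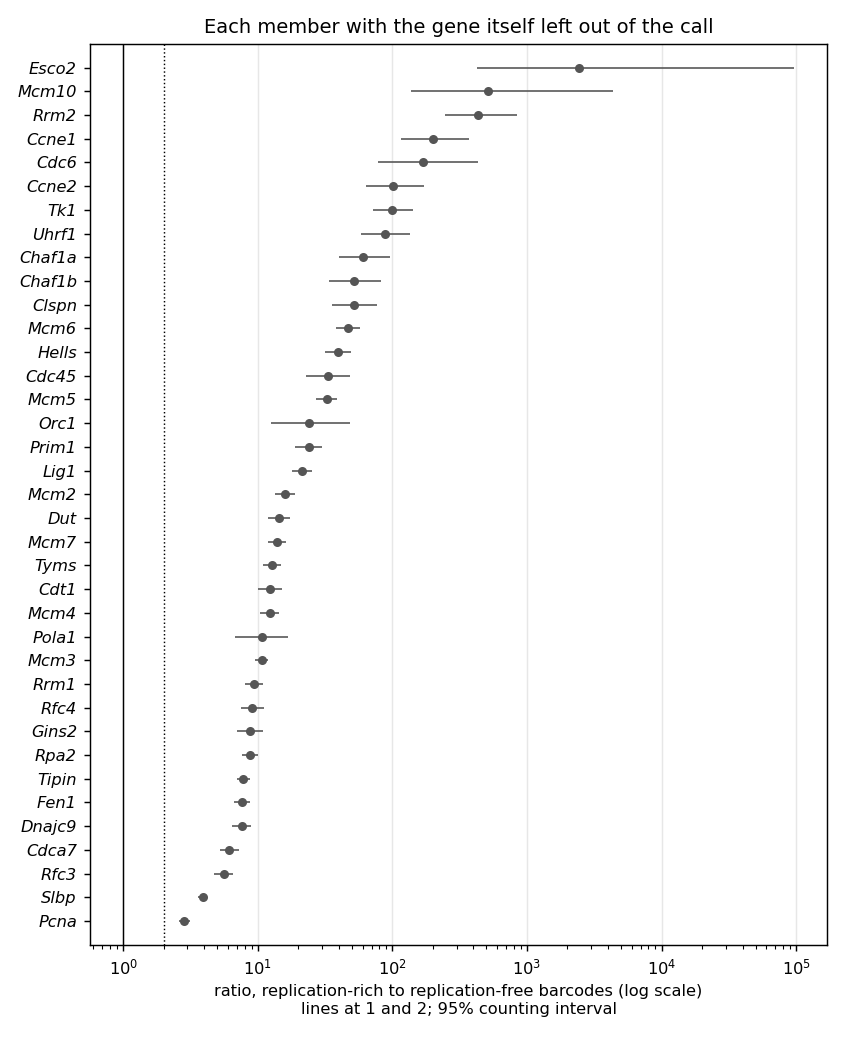
Ratio of each member between replication-rich and replication-free microglia on a log axis, with the gene itself left out of the call and levels from the UMIs not drawn; bars are 95% counting intervals and lines stand at 1 and 2. All 37 lie right of 2, from Pcna at 2.85 to Esco2 at 2425.

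Other genes of the cell cycle moved with them. Of 52 further replication genes tested (of 53 listed), 47 were at least 2-fold higher in the replication-rich microglia, with a median ratio of 5.90. Ccna2 (181), Brca1 (155), Exo1 (60.0) and Tcf19 (57.6) were among the highest. Below 2-fold were Rbbp4 (1.65), Gins4 (1.47) and the origin subunits Orc5 (1.41), Orc3 (1.39) and Orc4 (1.24). All 30 mitosis genes were at least 2-fold higher, with a median of 39.2, led by Nusap1 (410), Pbk (205), Bub1 (180), Prc1 (134), Bub1b (79.2) and Top2a (79.0). Among all genes that are no member and reach 30 CPM in the class, the 10 with the largest ratios included Nusap1, Neil3 (353), Pbk, Ccna2, Prc1, Ndc80 (118), Pkmyt1 (111), Cdca2 (106) and Pclaf (97.4), a partner of PCNA. These 10 were higher in 6 of 6 suffixes.

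Of 25 genes of G1 control tested (of 26 listed), 12 were at least 2-fold higher and 1 lower, with a median ratio of 1.97. The members of the E2F family that are themselves made at the start of S phase led, with E2f8 at 231 (74.3 to 1160) and the activator E2f1 at 21.4 (17.0 to 27.1). Skp2 (6.74), Cks1b (6.67), the RB relative Rbl1 (6.49) and Cdkn2c (6.03) came next. The D cyclins did not follow in the same way, with Ccnd1 at 1.10 (0.984 to 1.22), Ccnd2 at 1.38 and Ccnd3 at 1.69. Cdkn1a, the inhibitor p21, was at 957 CPM in the replication-rich barcodes and 519 in the others (1.84, 1.76 to 1.92), and Cdkn1c, the inhibitor p57, was lower, at 0.348 (0.173 to 0.629).

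Genes of microglial state had a median ratio nearer 1 than the lists of cell cycle genes. Of 14, 0 were at least 2-fold higher and 2 at least 2-fold lower, with a median ratio of 0.934. Over all 9167 genes tested 7.53% were at least 2-fold higher and 0.524% at least 2-fold lower, with a median ratio of 1.08. The list thus held a larger share of lower genes than the whole. Tmem119 (0.952), Cx3cr1 (0.993) and C1qa (0.961) were near 1 and P2ry12 at 0.819. The chemokines Ccl2 (1.56, 1.5 to 1.62) and Ccl12 (1.29) and the lipase Lpl (1.70) were higher in 6 of 6 suffixes, while Ifitm3 was at 1.10 (0.952 to 1.25) over all barcodes and lower in 5 of 6 suffixes. Cst3 (0.775), Lyz2 (0.644) and Apoe (0.587) were lower in 6 of 6 suffixes. Spp1 (0.318) and Cd74 (0.427) were lower in 5 of 6. Both classes were drawn from the microglia gate, and Tmem119, Cx3cr1 and P2ry12 are among the marker genes of that gate. Barcodes with too few of the gate's markers could not enter either class, so these genes do not test whether identity was kept. C1qa, which is no marker of the gate, was also close to its level in the rest (0.961). The replication-rich barcodes had less of Apoe, Spp1 and Cd74.

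Replication and mitosis follow each other in the cycle, and the mitosis genes divided the members. Of 962 replication-rich microglia 141 (14.7%) also had at least 3 mitosis genes among the drawn UMIs, which is 65.3% of the 216 barcodes rich in mitosis genes, and 690 had none. In the left-over UMIs the members took 8563 CPM (8270 to 8864) in the 141, 2711 (2632 to 2791) in the 690, 340 (226 to 492) in 37 barcodes rich in mitosis genes with no member drawn, and 429 in the 17317 with neither. All 37 members were higher in the 141 than in the 690, 32 of them with an interval above 1, and the median ratio was 2.74. The share of all genes that were higher in the 141 was not computed, so this count is not set against a background. The gene itself was not left out of the call here. More members per barcode were drawn in the 141, as the higher left-over level shows, and the part of this in the ratios was not tested. The comparison therefore turns on how far the members spread around the median.

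They spread over 2 orders of magnitude. Esco2 was at 369 CPM in barcodes rich in both and 3.03 in those with no mitosis gene, a ratio of 122 (50.9 to 380), and Rrm2 at 820 against 7.89, a ratio of 104 (59.9 to 198). Genes of the mitosis list, on which these classes were called, ran from 9.10 (Tacc3) through 103 (Mki67) to 341 (Birc5). Kif11, Kif20a and Bub1 stand outside this range, with 0 UMIs in the barcodes with no mitosis gene drawn. Among the members, Ccne2 (15.3), Ccne1 (12.2), Tk1 (10.1), Cdc6 (7.92), Tyms (7.45), Clspn (6.89), Mcm10 (5.62) and Uhrf1 (5.49) followed Esco2 and Rrm2. At the other end Cdca7 was at 92.9 and 90.4 CPM (1.03, 0.690 to 1.49), Gins2 at 55.7 and 52.2 (1.07, 0.629 to 1.74), Mcm2 at 127 and 117 (1.09, 0.776 to 1.5), Mcm3 at 273 and 214 (1.28, 1.02 to 1.60) and Mcm5 at 188 and 144 (1.31, 0.991 to 1.72). The partners Rrm1 and Rrm2 parted company, at 4.56 and 104. By role, the 9 genes of helicase loading had the lowest median ratio (1.46), though Cdc6 is one of them, and the 7 of chromatin (2.73), the 5 of polymerase and clamp (2.74) and the 3 of strand maturation (2.86) lay in between. The medians were 3.31 for helicase activation, 6.89 for fork protection and cohesion, 7.45 for nucleotide supply and 13.8 for cyclin E. The 6 subunits of the MCM ring ran from 1.09 for Mcm2 to 2.14 for Mcm7 (1.64 to 2.77), all below the median of the 37, while the cyclin E genes, Rrm2 and Esco2 were more than 10 times higher where mitosis genes were present.

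**Figure D4:**
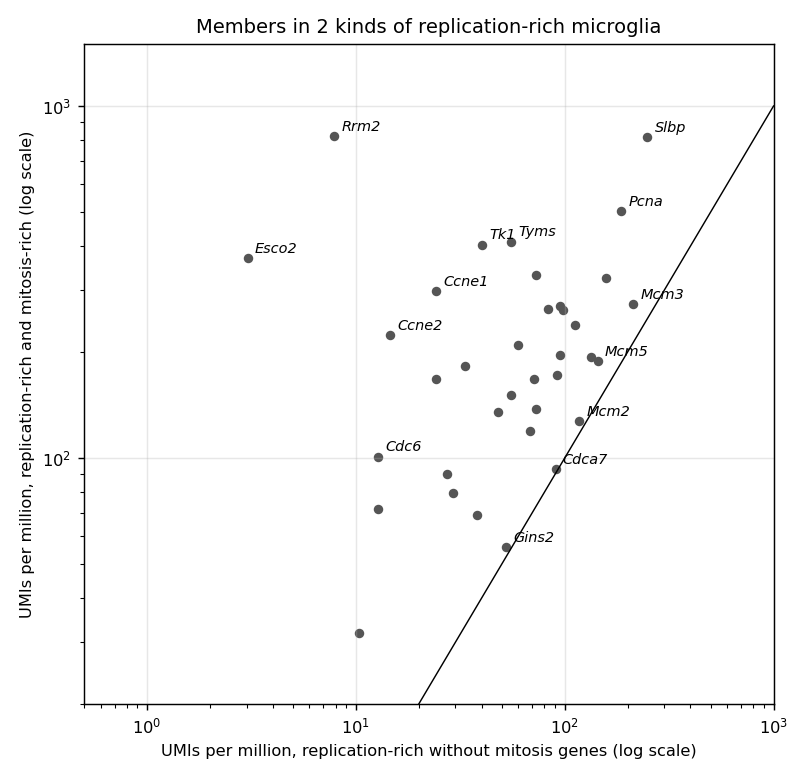
Level of each member (CPM of left-over UMIs, log axes) in 690 replication-rich microglia with no mitosis gene drawn and in 141 with at least 3; the line marks equal levels. Cdca7, Gins2 and Mcm2 lie on the line, while Esco2 and Rrm2 lie 2 orders of magnitude above it.

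Suffixes differed in the members' level. In microglia the 37 genes took 523, 566, 520, 796, 626 and 667 CPM in suffixes 1 to 6. The share of replication-rich barcodes was 1.95%, 2.69%, 1.71%, 6.49%, 3.49% and 3.97%, and without shared barcodes 2.08%, 3.20%, 1.68%, 7.13%, 4.40% and 4.03%. From high to low, the level and the share both ran in the order 4, 6, 5, 2, 1, 3. Without shared barcodes suffixes 5 and 6 changed places. With suffix 4 left out the share over the rest was 2.80%. Barcodes rich in mitosis genes made up 0.618%, 0.436%, 0.135%, 1.34%, 0.992% and 1.05%, so that suffix 3 had 3 such barcodes in 2219. Median depths of the thinned barcodes were 3154, 2536.5, 3711, 2802, 2506 and 3327 UMIs and did not follow this order. Suffixes were not assigned to IL33 or pcDNA here, so these values are not a comparison of the groups.

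**Figure D5:**
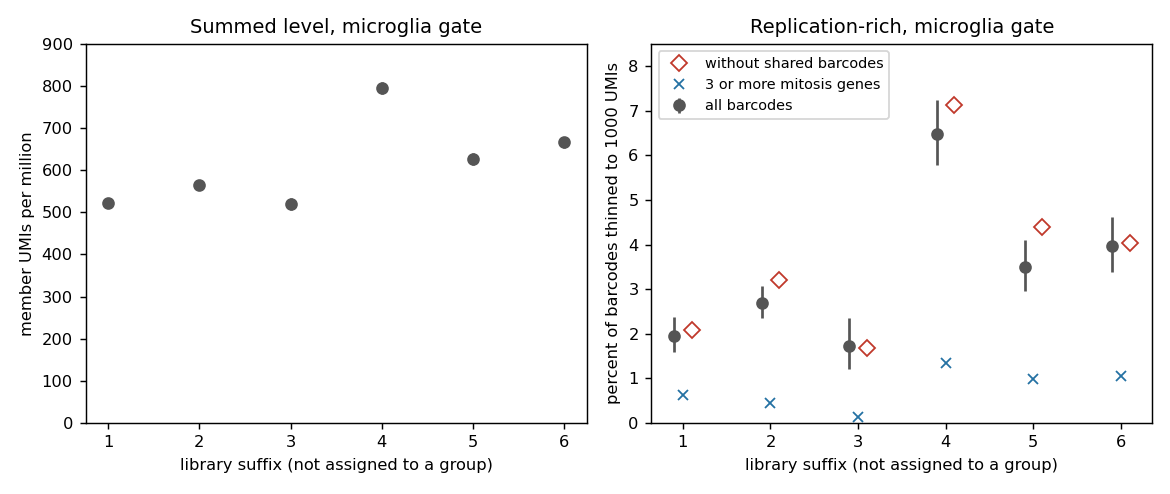
Microglia by library suffix, with no assignment of suffixes to groups. On the left is the summed level of the 37 genes (CPM), with 95% Poisson intervals smaller than the points. On the right is the percent of barcodes thinned to 1000 UMIs with at least 3 members (filled, exact 95% binomial intervals), the same without shared barcodes (diamonds) and with at least 3 mitosis genes (crosses). Suffix 4 is highest, at 796 CPM and 6.49%.

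Gene by gene, 32 of the 37 were highest in suffix 4, and 19 were lowest in suffix 3 and 16 in suffix 1. The same counts were not made over all genes, so these do not set the members apart from other genes. Mcm6 was at 5.30, 9.87, 5.71, 24.2, 11.5 and 14.9 CPM in suffixes 1 to 6, a 4.56-fold range. Hells was at 4.69, 7.87, 5.48, 19.7, 8.78 and 11.6, and Chaf1a ranged from 1.12 to 5.85. These genes were highest in suffixes 4, 6 and 5 and lowest in 1 and 3, as the replication-rich share was. Slbp was at 114, 122, 105, 121, 111 and 121, a range of 1.16-fold, and Pcna at 97.6, 75.6, 110, 95.8, 110 and 99.0, with its highest value in suffix 3. Slbp and Pcna, the most abundant and the least tied to the class, did not follow the other members over suffixes. Esco2 was at 2.57, 1.74, 0.350, 3.83, 2.98 and 4.82 and Rrm2 at 5.75, 4.44, 1.28, 8.53, 7.37 and 10.5, both lowest in suffix 3 and highest in suffix 6. They went with the share of barcodes rich in mitosis genes in being lowest in suffix 3, and their top value was not in suffix 4. Rfc4 (1.36-fold), Rfc3 (1.38-fold), Fen1 (1.41-fold), Rrm1 (1.42-fold), Dnajc9 (1.46-fold), Tyms (1.53-fold), Cdca7 (1.54-fold), Tipin (1.57-fold) and Rpa2 (1.70-fold) ranged little, and the others from 1.94 to 5.30-fold apart from Rrm2 (8.16-fold) and Esco2 (13.8-fold).

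Some members overlap other genes. Cdt1 overlaps Gm20388 on its own strand, and Mcm7, Lig1, Fen1, Gins2, Cdc45, Tk1, Chaf1a, Ccne2 and Rfc4 overlap genes on the other strand. Cell Ranger, the counting tool named in the submitters' notes, assigns reads by the gene's strand, so the overlap on the same strand is the one that bears on these counts.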

How the data were processed

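CD45+ cells from 6 xenograft-bearing SCID mice (3 IL33, 3 pcDNA) were profiled with 10x Chromium 3′ libraries. The authors aligned the reads to mm10 with Cell Ranger 3.1 (the submitters' notes also name Seurat 3.1.5), sequenced the libraries in batches, joined them and deposited 1 matrix of UMI counts, whole and not normalized. The gene annotation release is not given in the sources used here. The number of columns left out was 0.

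Kept barcodes had more than 200 genes, no more than 2500, and under 5% mitochondrial counts, the study's own limits. Doublets were not called; barcodes with at least 3 markers of another type and over 1 of 5 microglial genes were set aside as mixed. The 37 members, the marker lists and the other gene lists were chosen with earlier results of these data known. Levels are counts per 1000000 (CPM), summed within a gate. Barcodes of at least 1000 UMIs were thinned to 1000 without replacement (29608 kept, 9143 shallower), replication-rich ones were called on those UMIs, and ratios between classes used the rest. Exact Poisson and binomial intervals (95%) cover counting error only, and a count of 0 allows 3 counts. Genes with a mean of at least 5 CPM over 2 classes were compared at 2-fold. Since the labels tie no suffix to a mouse and values were not used to assign them, the matrix was treated as 1 pooled sample with no test and no p-value, and suffixes served as ranges where a gate had at least 20 barcodes. Named were all members, the 5 with the highest CPM in each gate, the 5 highest and lowest ratios, the 10 leading non-members of at least 30 CPM and up to 6 genes of each list. Values of some genes under this rule are not reported here. Gene positions are from GENCODE M21 and promoter sequences from RefSeq, both on GRCm38. Python 3.11.15 with numpy 2.4.6, scipy 1.17.1, pandas 2.3.3 and matplotlib 3.10.9 was used. The fold comparison, the thinning and the ratios with each gene left out were tested on simulated data. For the ratios the simulation used a lower limit of members and deeper barcodes than the results here. The marker gates were not simulated. Alternatives covered the barcode filters, gates, shared barcodes, thinning, number of members, fold limit and each suffix left out.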

Additional observations from a re-analysis of the deposited data

Results flagged for a closer look

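Barcodes of over 2500 genes were outside the main measurement, and the members were well above the limit that a count of 0 allows in them. In 663 microglia-gated barcodes of this kind the members took 860 CPM (837 to 883), and 61 (9.20%, 7.11% to 11.7%) were replication-rich after thinning to 1000 UMIs, against 3.38% of the kept ones. In 8 monocyte-gated barcodes of this kind they took 1960 CPM (1654 to 2307, 145 UMIs), and 3 of the 8 were replication-rich (37.5%, 8.52% to 75.5%), against 354 CPM and 3 of 231 among the kept ones. The median depth of these sets was 9028 and 8948 UMIs. Barcodes that hold more than 1 cell were not told apart from large single cells.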

How the results depend on the processing

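Of 227 alternative values 188 stayed within the spread of the main value (over suffixes or counting, or within 1.5 times for a count) and 39 moved. No paired analysis was possible because the values come from no test and the labels tie no suffix to a numbered sample. For the summed level in CPM, NK cells moved to 1124 and monocytes to 271 with gates of at least 4 markers, NK cells to 753 and granulocytes to 491 with mixed barcodes put in their best gate, and monocytes to 458 with no upper limit on genes. Without the 5 members most abundant in microglia the levels were 306, 502, 187 and 145 in microglia, NK cells, monocytes and granulocytes, and without replication-rich barcodes microglia were at 470 (chosen after seeing the data). For the replication-rich share, microglia were at 1.09% and granulocytes at 0% with 500 UMIs drawn, microglia at 8.94% and NK cells at 21.7% with 2000, microglia, NK cells and monocytes at 12.4%, 20.2% and 18.2% unthinned, and microglia and NK cells at 9.55% and 25.2% with at least 2 members. With at least 4 members NK cells and granulocytes were at 0%. Without Slbp, Pcna, Tipin and Mcm3 (chosen after seeing the data) NK cells were at 0.901%, microglia at 1.98%, monocytes at 0.433% and granulocytes at 0%, where granulocytes also were without shared barcodes and with 1 barcode for each 16 bases (chosen after seeing the data). The count of members at least 2-fold higher became 4 in NK cells and 2 in granulocytes with mixed barcodes, 2 in monocytes with no upper limit on genes, 5 in NK cells and 3 in granulocytes at 3-fold, 1 in granulocytes at a mean of 20 CPM, and 3 in granulocytes without shared barcodes and with 1 barcode for each 16 bases. The median ratio between replication-rich and replication-free microglia became 9.05 with at least 2 members and 20.3 with at least 4, and all 37 stayed at least 2-fold higher in each alternative run except with at least 2 members, where 36 did and the lowest ratio was 1.93. With 1 suffix left out, the levels ran from 580 to 635 in microglia, 884 to 1020 in NK cells, 305 to 399 in monocytes and 192 to 319 in granulocytes. The shares ran from 2.80% to 3.70%, 0% to 5.13%, 0% to 2.13% and 0% to 7.14% in the same order, with 0% without suffix 6 in NK cells, suffix 4 in monocytes and suffix 1 in granulocytes. The counts ran from 7 to 10 in NK cells, 0 to 2 in monocytes and 3 to 6 in granulocytes, and the median and lowest ratios from 14.9 to 16.4 and 2.74 to 2.94. The cause of these changes was not tested. Depth limits the small gates, in which 1 UMI is worth 4.29 CPM (NK cells), 0.936 (monocytes) and 13.2 (granulocytes).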

Other observations

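Among barcodes left out for 5% or more mitochondrial counts, 8 were gated as NK cells and held 34 member UMIs, or 5604 CPM (3881 to 7831). Only 1 of the 8 reached 1000 UMIs, and it was replication-rich. The 514 microglia-gated barcodes of this kind were at 695 CPM (638 to 755), and 15 of 323 with enough UMIs were replication-rich (4.64%, 2.62% to 7.54%). In the 13 dendritic cells Slbp had 5 UMIs and Dut, Rfc3, Rpa2 and Tipin 2 each, and the 1 border-associated macrophage had none of the 37. In choroid plexus epithelium Dut (52.7 CPM) was followed by Tipin (39.5), Slbp (34.2), Dnajc9 (23.7) and Pcna (13.2). The 284 barcodes with mixed markers were at 580 CPM (539 to 623). Of these, 112 had NK cells as their best gate, 58 monocytes, 57 choroid plexus epithelium and 53 granulocytes. The 1687 barcodes that met no gate, with a median of 743 UMIs, were at 519 CPM (484 to 556), and at least 3 markers of T or B lymphocytes were seen in 7 kept barcodes.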
